A study of Mus musculus with 11 samples.

Results

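Liver sinusoidal endothelial cells were followed through 10 marker genes: the scavenger and endocytic receptors *Stab1*, *Stab2*, *Lyve1*, *Clec4g* and *Fcgr2b*, the signaling receptors *Kdr*, *Ptprb* and *Gpr182*, the adhesion molecule *Pecam1* and the transcription factor *Maf*. They were taken by gene symbol from the table of read counts, and all 10 were found among its 13669 genes and among the 13334 genes tested. RNA was from whole livers of 11 male mice of the strain C57BL/6J, fed regular chow and injected by tail vein with recombinant adeno-associated virus of serotype 8 (rAAV8). In 6 of them (AAV-TuD) the virus expressed a Tough Decoy (TuD), an RNA that sequesters *miR-379* and *miR-541*, and in 5 (AAV-NC) it expressed a negative control sequence. Both viruses carried the LP1 promoter, made of regulatory elements of human apolipoprotein and alpha-1-antitrypsin genes, which the study describes as specific for liver. Expression of the decoy in endothelial cells was not analysed here. The mice were 6 weeks old on arrival and wild type, the study's general account has them fasted for 5 to 6 h before killing, between 4 weeks and 3 months after rAAV, and the age and time for each of these animals are not given in the sources used here.

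Sinusoidal endothelial cells line the capillaries of the liver lobule. Their wall is perforated by fenestrae and has little basement membrane, which lets plasma reach the hepatocytes, and they clear modified proteins, hyaluronan and immune complexes from blood by receptor-mediated endocytosis. When these cells dedifferentiate, a process known as capillarization, they lose fenestrae and scavenger receptors and gain features of continuous capillaries, such as CD34 and a basement membrane. In RNA of whole liver, a lower value could come from fewer cells of a type or from less RNA per cell, and these cannot be told apart.

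Mature sequences of the miRNAs bound by the decoy are given because the question is whether the markers carry matches to them. Capitals mark the seed, bases 2 to 8, and both miRNAs are encoded on the plus strand of chromosome 12 (RefSeq, GRCm38.p6; chr12:109709065-109709085 and chr12:109742422-109742446).
miR-379-5p: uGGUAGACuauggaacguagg
miR-541-5p: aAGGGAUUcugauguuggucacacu
The seeds are different. The letters GTCTACC, complementary to the seed of miR-379-5p, and AATCCCT, complementary to that of miR-541-5p, were searched on the transcript strand in 3′ UTRs, where miRNAs usually bind, taking for each gene the longest one annotated. The GTCTACC match was present in 568 of 10928 tested genes with such a UTR (5.2%) and the AATCCCT match in 978 (8.9%). Among the 10 markers, *Kdr* held 1 GTCTACC match and none held an AATCCCT match. The *Kdr* match lies at chr5:75934019-75934025 on the minus strand (GRCm38, GENCODE M21), at base 398 of a 3′ UTR of 1596 bases, and is shown in capitals within its surroundings.
Kdr 3′ UTR: ccagggccgagtctGTCTACCttggagg
A match of these letters is a description and not a measured site. The study also reports that the decoy lowered the host transcripts *lncMGC* and *Mirg* and other miRNAs of the same cluster in liver. Seeds of those other miRNAs were not searched, so the counts above cover *miR-379* and *miR-541* only. The miRNAs themselves were not analysed here.

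Libraries sequenced the 3′ ends of polyadenylated transcripts, so levels in CPM (a count divided by the scaled library total, times 1000000) are on a scale of transcript ends and are not divided by length. Counted reads were between 8148531 and 12043959 per liver. Major urinary protein (*Mup*) transcripts held 38.6% of the reads in AAV-NC liver 7, 30.9% in AAV-TuD liver 3 and 28.4% in AAV-TuD liver 5, against 8.09 to 18.7% in the other livers. CPM values were scaled by TMM factors, which lay between 0.667 and 1.24. Differences were tested with edgeR's quasi-likelihood test, and genes with a Benjamini-Hochberg adjusted p under 0.05 are called higher or lower. All log2 fold changes are AAV-TuD against AAV-NC, with their standard error (SE). Hepatocyte RNA was abundant in every liver, with *Alb*, the gene of serum albumin, at 21096 ± 2304 CPM (SD, n = 5) in AAV-NC and 28044 ± 2727 CPM (n = 6) in AAV-TuD.

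Of the 10 markers, 9 were not called and *Maf* was called higher with AAV-TuD. Over all genes tested, 11.6% were called, 7.24% higher and 4.33% lower, so that 1 call in 10 lies near the background. The values of AAV-NC and AAV-TuD livers overlapped for each of the 10 markers, and 7.39% of all genes had groups that did not overlap. The median log2 fold change of the markers was -0.03, with a range from -0.23 to 0.28, and that of all genes was -0.0024, with quartiles at -0.16 and 0.20. The 95% interval of the difference held 0 for 9 of 10 markers. All 10 intervals lay within a 1.5-fold change in either direction. The widest bounds were a ratio of 0.690 for *Fcgr2b* and of 1.39 for *Lyve1*, so larger differences than these are outside all 10 intervals. Which smaller differences remain inside depends on the marker. For *Ptprb* the interval was a ratio of 0.926 to 1.12, and that of *Maf*, 1.07 to 1.37, leaves out no change.

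The sum of the 10 markers was 368 to 417 CPM in AAV-NC livers and 397 to 432 CPM in AAV-TuD livers. Without *Maf*, it was 254 to 280 CPM (266 ± 9.60, SD, n = 5) and 252 to 273 CPM (264 ± 7.60, n = 6). The summed level of the other 9 markers thus covered nearly the same range in the 2 groups. *Maf*, left out here, is the marker called higher in these data, so the likeness of the 2 ranges follows in part from that choice. The largest parts of the remaining sum were *Ptprb* and *Kdr*. Before TMM scaling, the 10 markers made up 0.0260 to 0.0416% of all reads in AAV-NC and 0.0351 to 0.0531% in AAV-TuD. When only library size was used for scaling, the log2 fold changes of all 10 markers were above 0, with a median of 0.20, while the median of all genes was 0.23. The markers' median was then 0.04 below that of all genes, and with TMM it was 0.03 below.

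**Figure D1:**
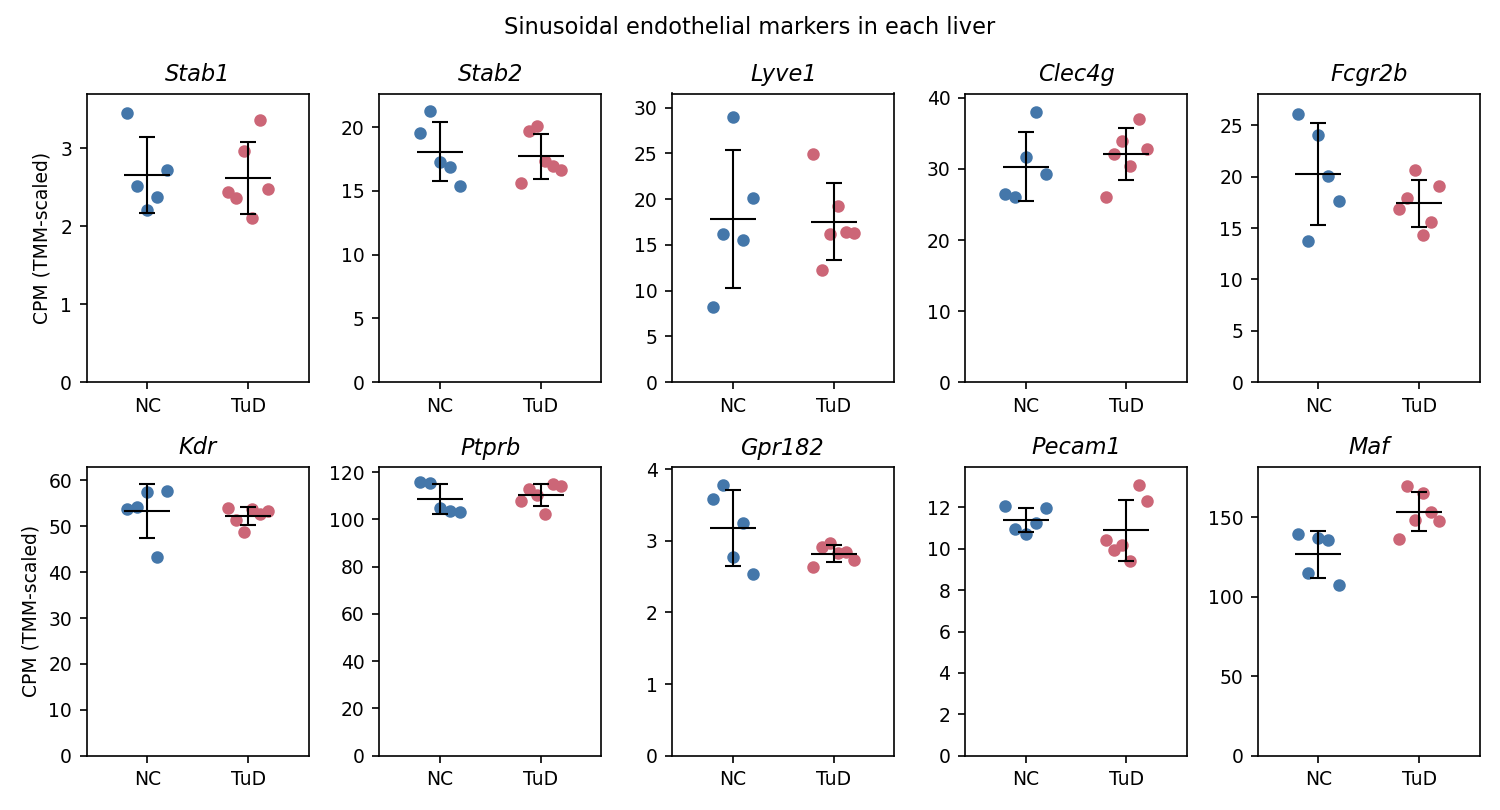
CPM (TMM-scaled, y axis from 0, scale set for each gene) of the 10 markers in AAV-NC (blue, n = 5) and AAV-TuD livers (red, n = 6); points are livers, horizontal lines are means and bars are SD. The groups overlap in every panel, *Lyve1* is the most variable gene in AAV-NC, and 5 of 6 AAV-TuD livers lie above all AAV-NC livers for *Maf*.

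The scavenger receptors were considered first. *Stab2*, which encodes stabilin-2, the hyaluronan scavenger receptor, lies at chr10:86841198-87008025 on the minus strand. It was at 19.6, 21.3, 17.3, 16.9 and 15.4 CPM in AAV-NC livers 1, 2, 6, 7 and 8, and at 15.6 to 20.1 CPM (median 17.2) in AAV-TuD livers. All AAV-TuD values were within the range of AAV-NC, with a log2 fold change of -0.03 (SE 0.10; 95% interval -0.25 to 0.19; adjusted p = 0.906). Its paralog *Stab1* (chr14:31139013-31168641, minus strand) encodes stabilin-1, which clears oxidized lipoproteins and is also made by some macrophages. It was the lowest of the 10, with 19 to 39 reads per liver. Its level was 3.46, 2.52, 2.21, 2.38 and 2.73 CPM in AAV-NC livers in the same order and 2.11 to 3.36 CPM (median 2.46) in AAV-TuD livers. The groups overlapped nearly completely (log2 fold change -0.02, SE 0.19; 95% interval -0.43 to 0.38; adjusted p = 0.957). Counting error alone at the mean of 26.4 reads is 19.5%, against a coefficient of variation (CV) of 18.3% in AAV-NC and 17.5% in AAV-TuD, and a log2 fold change as large as that of *Maf* below lies inside the interval of *Stab1*.

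*Clec4g*, a C-type lectin of sinusoidal endothelium also called LSECtin, lies at chr8:3707064-3720651 on the minus strand. It was at 26.5, 26.1, 31.7, 38.1 and 29.3 CPM in AAV-NC livers and at 26.1 to 37.1 CPM (median 32.5) in AAV-TuD livers. Its highest and its lowest liver were both AAV-NC, and the log2 fold change was 0.08 (SE 0.11; adjusted p = 0.694). *Fcgr2b*, the inhibitory Fc receptor through which these cells take up immune complexes, lies at chr1:170958617-170976547 on the minus strand and is also made by B cells and macrophages. Its levels were 26.1, 13.7, 24.0, 20.03 and 17.6 CPM in AAV-NC and 14.3 to 20.6 CPM (median 17.4) in AAV-TuD. It had the lowest log2 fold change of the 10, -0.23 (SE 0.15; 95% interval -0.54 to 0.08; adjusted p = 0.354). Its AAV-TuD values lay inside the range of AAV-NC, which was wider.

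*Lyve1*, the hyaluronan receptor shared with lymphatic endothelium and some macrophages, lies at chr7:110850607-110863239 on the minus strand. Its levels differed more among livers than those of the other 9. They were 8.24, 16.2, 29.0, 15.5 and 20.1 CPM in AAV-NC livers 1, 2, 6, 7 and 8, a 3.52-fold span, and 12.3 to 24.9 CPM (median 16.4) in AAV-TuD, a 2.02-fold span. AAV-NC livers 1 and 6, at the ends of the range, had 69 and 262 reads, and the CV of 42.5% in AAV-NC and 24.1% in AAV-TuD is above the 7.49% of counting error. The means were 17.8 and 17.6 CPM, with a log2 fold change of -0.03 (SE 0.24; 95% interval -0.53 to 0.47; adjusted p = 0.958), which was 0.22 without AAV-NC liver 6. The sign of the *Lyve1* difference also turned without AAV-NC liver 8 (0.02) or AAV-TuD liver 4 (0.06), and its interval leaves room for changes of either sign.

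The signaling receptors come next. *Ptprb*, which encodes the endothelial phosphatase VE-PTP that restrains the angiopoietin receptor TIE2, lies at chr10:116275523-116389535 on the plus strand. It was at 116, 115, 105, 104 and 103 CPM in AAV-NC and 102 to 115 CPM (median 112) in AAV-TuD. It had the narrowest interval of the 10, with a log2 fold change of 0.02 (SE 0.06; 95% interval -0.11 to 0.16; adjusted p = 0.857), or a ratio of 0.926 to 1.12. *Kdr*, the main VEGF receptor of endothelium (VEGFR2) and the marker with the GTCTACC match printed above, lies at chr5:75932827-75978458 on the minus strand. Its levels were 53.7, 54.3, 57.4, 43.3 and 57.7 CPM in AAV-NC livers 1, 2, 6, 7 and 8. In AAV-TuD it was at 48.8 to 53.9 CPM (median 53.0). AAV-NC liver 7 was the lowest of the 11 livers, liver 1 was inside the AAV-TuD range and the other 3 were above it. The log2 fold change of *Kdr* was -0.03 (SE 0.08; 95% interval -0.19 to 0.14; adjusted p = 0.867). *Gpr182*, an atypical chemokine receptor of sinusoidal endothelium, lies at chr10:127747276-127751732 on the minus strand and was at 3.58, 3.78, 2.77, 3.25 and 2.53 CPM in AAV-NC. In AAV-TuD it was at 2.63 to 2.97 CPM (median 2.84), in the lower part of the AAV-NC range (log2 fold change -0.16, SE 0.16; 95% interval -0.51 to 0.18; adjusted p = 0.584). With 25 to 35 reads per liver its AAV-TuD values spread less (CV 4.40%) than counting error would give (18.4%). The end of *Gpr182* shares 74 bases with *Zbtb39* on the opposite strand, and as the strand setting of the counting is not given in the sources used here, reads of this stretch cannot be assigned to either gene with certainty. Exons of *Maf* (440 bases), *Fcgr2b* (155), *Clec4g* (146), *Stab2* (141) and *Stab1* (112) also overlap exons on the opposite strand. The genes of those exons are not in the table of read counts, and any effect on the markers' counts was not tested.

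*Pecam1*, which encodes the junction protein CD31 of all endothelium and of some blood cells, lies at chr11:106654217-106750628 on the minus strand. It was at 12.1, 10.95, 10.7, 11.3 and 11.97 CPM in AAV-NC and at 9.39 to 13.1 CPM (median 10.3) in AAV-TuD. Of the AAV-TuD livers, 4 were below and 2 were above all AAV-NC livers, and the log2 fold change was -0.06 (SE 0.11; 95% interval -0.29 to 0.16; adjusted p = 0.760). For *Pecam1* the AAV-TuD livers thus spread to both sides of a narrow AAV-NC range.

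*Maf* (c-Maf), a transcription factor of sinusoidal endothelium that is also expressed by macrophages and other cells, lies at chr8:115682942-115707794 on the minus strand. It was at 139.7, 115, 137, 136 and 107 CPM in AAV-NC livers 1, 2, 6, 7 and 8, and at 136, 170.0, 148, 165, 154 and 148 CPM in AAV-TuD livers 3, 4, 5, 9, 10 and 11. All 6 AAV-TuD livers were above the AAV-NC mean and 5 were above every AAV-NC liver, while AAV-TuD liver 3 was within the AAV-NC range. Mean levels were 127 ± 14.8 (SD, n = 5) and 154 ± 12.4 CPM (n = 6). The log2 fold change of 0.28 (SE 0.09; 95% interval 0.09 to 0.46) corresponds to a ratio of 1.21, with an adjusted p of 0.0481 in edgeR. *Maf* had the most reads of the 10, with a mean of 1434 per liver and a counting error of 2.64%, and the difference between the means, in CPM, was larger than the SD of either group.

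The call of *Maf* was close to the threshold. Across 21 other ways of processing, its log2 fold change remained above 0, at 0.22 to 0.53, and the adjusted p was between 0.0271 and 0.109, under 0.05 in 10 of them. With DESeq2, the tool of the study, the adjusted p was 0.0295, but with DESeq2's size factors in edgeR it was 0.0513 and without a filter on low counts 0.0504. When each liver was left out in turn, the call was kept without AAV-NC liver 1 (adjusted p = 0.0442) and without AAV-TuD liver 3 (0.0271). It was lost in the other 9 cases. The adjusted p was 0.109, 0.0525, 0.0528 and 0.107 without AAV-NC livers 2, 6, 7 and 8, and 0.101, 0.0591, 0.0917, 0.0732 and 0.0620 without AAV-TuD livers 4, 5, 9, 10 and 11. The log2 fold change of *Maf* was 0.35 (adjusted p = 0.0373) without the 3 livers with a *Mup* share over 25%. In each of these 21 runs, *Maf* was the only marker called, or none was.

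**Figure D2:**
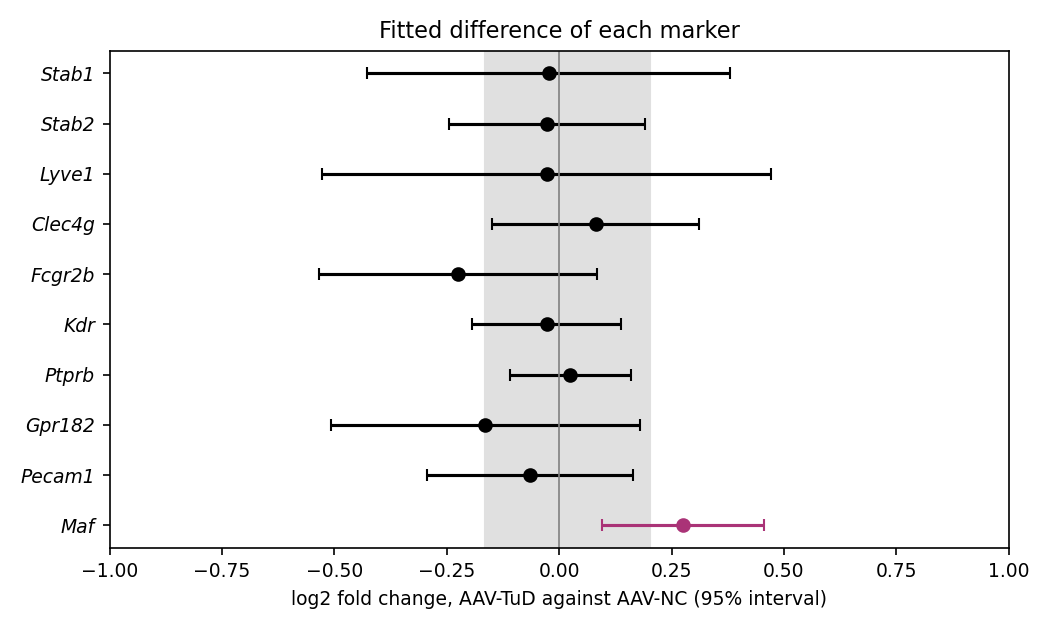
Log2 fold change of each marker (points) with its 95% interval (bars) in edgeR, AAV-TuD against AAV-NC; the gray band marks the quartiles of all genes tested, -0.16 and 0.20, and the purple point has an adjusted p under 0.05. The interval of *Maf* is the only one that does not hold 0, and those of *Lyve1* and *Stab1* are the widest.

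**Figure D3:**
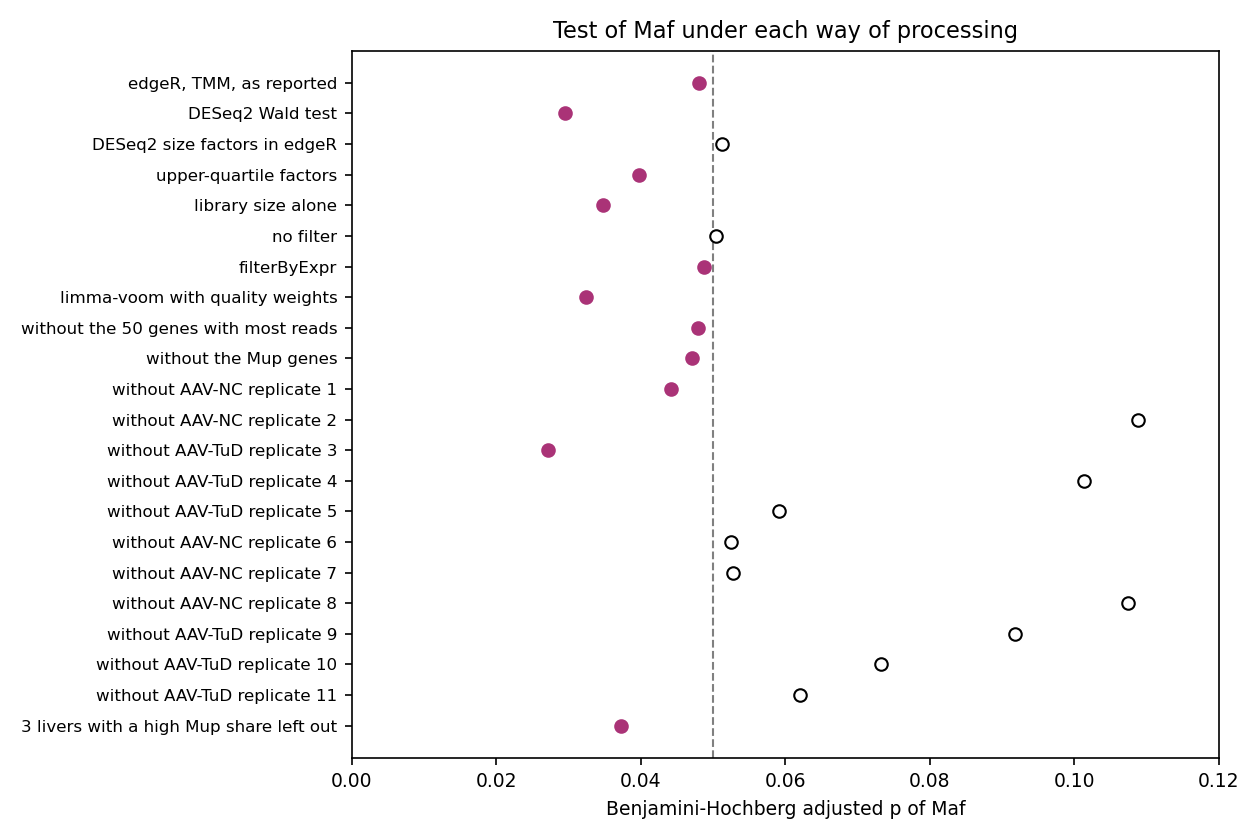
Adjusted p of *Maf* as reported and under 21 other ways of processing; the dashed line is 0.05 and filled points lie under it. Of the runs that leave out a single liver, 2 of 11 lie under the line.

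Macrophage genes were higher in the same livers. Of 18 tested Kupffer cell and macrophage markers, 10 were higher and none was lower with AAV-TuD, with a median log2 fold change of 0.82. Their summed level was 279 to 351 CPM in AAV-NC and 294 to 667 CPM in AAV-TuD, above all AAV-NC livers in 5 of 6. *Ctss*, which encodes the lysosomal protease cathepsin S, was at 27.2 ± 1.79 CPM (SD, n = 5) in AAV-NC and 53.3 ± 13.9 CPM (n = 6) in AAV-TuD (log2 fold change 0.97, SE 0.15; adjusted p = 0.0013). *Vsig4*, a complement receptor of Kupffer cells, had a log2 fold change of 0.93 (SE 0.18), *Lyz2* (lysozyme) of 1.34 (SE 0.27) and *C1qc* (complement C1q) of 0.84 (SE 0.18). *Slc40a1*, the iron exporter ferroportin and the most abundant of these genes, was at 54.7 ± 11.2 and 56.2 ± 9.43 CPM and was not called (adjusted p = 0.900). The part of macrophage RNA in the values of *Maf*, *Stab1*, *Lyve1* and *Fcgr2b* was not tested.

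By level, the markers took the order *Maf*, *Ptprb*, *Kdr* and *Clec4g*, then *Stab2*, *Lyve1* and *Fcgr2b*, then *Pecam1*, *Gpr182* and *Stab1*, on the CPM scale of transcript ends. In AAV-TuD, the ranges of neighbors in this order overlapped only between *Stab2* and *Lyve1*, between *Lyve1* and *Fcgr2b*, and between *Gpr182* and *Stab1*. In AAV-NC, *Fcgr2b* came before *Stab2* and *Lyve1*, and neighbors that overlapped were *Maf* and *Ptprb*, *Clec4g* and *Fcgr2b*, *Fcgr2b* and *Stab2*, *Stab2* and *Lyve1*, *Lyve1* and *Pecam1*, and *Gpr182* and *Stab1*. *Maf* was above *Ptprb* in 4 of 5 AAV-NC livers and in 6 of 6 AAV-TuD livers. The exchange of places among *Stab2*, *Lyve1* and *Fcgr2b* is within their spread.

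Within the groups, the markers did not vary as a block. After the mean of each group was subtracted from log2 CPM, the 45 pairs of markers had a median Pearson r of 0.02 over the 11 livers, and 24 pairs were positive. The largest r was that of *Stab2* and *Gpr182* (r = 0.83, Spearman rho = 0.78; exact permutation within the groups, two-sided, p = 0.0018 for r and 0.0102 for rho). Adjusted over the 45 pairs, these were 0.0797 and 0.228, and no pair was under 0.05 on either measure. By rank the largest pair was *Lyve1* and *Kdr* (rho = 0.83; same permutation, p = 0.0063, adjusted 0.228), but its r was 0.34 (p = 0.434). The r of *Stab2* and *Gpr182* was 0.77 without AAV-NC liver 2 and AAV-TuD liver 5, 0.91 within AAV-NC and 0.93 within AAV-TuD. *Lyve1* went against the mean of the other 9 (r = -0.72, rho = -0.72), with its lowest pair being *Gpr182* (r = -0.67, rho = -0.72; p = 0.0891 and 0.0275; adjusted 0.479 and 0.320). *Kdr* also went against the mean of its other 9, more by rank (rho = -0.70) than by r (-0.32). *Ptprb* had the highest r with the mean of the others (0.61, rho = 0.58). These values share 11 libraries and their scaling.

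Genes most like the markers were ranked by the same deviations, against the mean of the 10 standardized markers. They were *Meis2* (r = 0.95, rho = 0.95), *Dlc1* (r = 0.92) and *Exoc7* (r = 0.92). After these came *Dnmbp*, *Trim2*, *Angel2*, *Srgap2*, *Acbd6*, *Lrrc8d* and *Gm11914* (r = 0.87). The 10 genes were chosen as the highest among 8364 genes whose mean count was 50 reads or more. How high r becomes through selection from so many genes was not tested. The markers behind the mean had a median r of 0.02 between pairs, so likeness to it is not likeness to each marker. None of the 10 named genes is in the lists of cell type genes. *Srgap2* was higher with AAV-TuD, at 12.7 and 19.1 CPM (log2 fold change 0.59, adjusted p = 0.0030), and the other 9 were not called.

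Other genes of sinusoidal endothelium were examined next. Of 22 genes in the list, 19 were tested, 1 was higher, none was lower and the median log2 fold change was 0.09. Of these 19, 15 had a log2 fold change above 0, against 3 of the 10 markers. *Mrc1*, the mannose receptor, was at 45.8 ± 1.48 CPM (SD, n = 5) in AAV-NC and 47.1 ± 5.04 CPM (n = 6) in AAV-TuD (log2 fold change 0.04, SE 0.08). *Dnase1l3*, a secreted nuclease, was at 45.4 ± 6.51 and 45.7 ± 4.61 CPM (0.01, SE 0.10). *Oit3* (0.10, SE 0.12), *Gata4*, a transcription factor of these cells (0.06, SE 0.19), *Bmp2* (-0.03, SE 0.10) and *Plpp3*, the most abundant of the list (-0.11, SE 0.12), were not called. The exception was *Eng*, which encodes endoglin, a co-receptor for BMP9 and BMP10. It was at 10.1 to 15.0 CPM in AAV-NC and 15.1 to 19.7 CPM in AAV-TuD, without overlap (log2 fold change 0.40, SE 0.11; adjusted p = 0.0269). *Eng* was called in 17 of 21 other ways of processing and was lost without AAV-NC liver 1, AAV-NC liver 6 or AAV-TuD liver 10 (adjusted p up to 0.0615) and without the 3 livers with a high *Mup* share. *Bmp6* was not among the genes tested.

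Genes shared by endothelium of most vessels were also mostly not called, with 1 higher (*Eng*) and 1 lower of 25 tested and a median of 0.11. Of the 25, 21 had a log2 fold change above 0. *Cdh5*, the junctional VE-cadherin, was at 11.4 ± 0.82 and 14.6 ± 2.38 CPM (0.35, SE 0.12; adjusted p = 0.0679). *Tie1* (0.01, SE 0.16) and *Tek*, which encodes TIE2 (-0.14, SE 0.26), were not called. *S1pr1*, a sphingosine 1-phosphate receptor that stabilizes vessels, was lower. Its level was 46.6 to 54.4 CPM in AAV-NC and 27.3 to 39.7 CPM in AAV-TuD, without overlap (log2 fold change -0.49, SE 0.09; adjusted p = 0.0033). The *S1pr1* call was lost only with library size alone (adjusted p = 0.314), where its log2 fold change was -0.27.

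Of 17 tested genes of continuous capillaries and capillarized sinusoids, 7 were higher and none was lower, with a median log2 fold change of 0.58. The summed level of this list was 138 to 177 CPM in AAV-NC and 198 to 304 CPM in AAV-TuD. The 4 with the smallest p encode matrix proteins that stellate cells and other cells also make. *Sparc* was at 46.8 ± 4.55 and 87.5 ± 15.5 CPM (log2 fold change 0.90, SE 0.11; adjusted p = 2.5e-04), *Col4a2* had a log2 fold change of 1.11 (SE 0.18), *Col4a1* of 0.98 (SE 0.17) and *Lamb1* of 1.03 (SE 0.19). *Ly6a*, which encodes the surface protein SCA-1 of some endothelial and blood cells, was at 2.01 to 4.13 CPM in AAV-NC and 4.99 to 8.02 CPM in AAV-TuD, without overlap (0.92, SE 0.19; adjusted p = 0.0075), and was called in each of the 21 other ways of processing. *Plvap*, of the diaphragms of fenestrae and caveolae, was at 13.2 to 19.2 CPM in AAV-NC and 14.9 to 31.0 CPM in AAV-TuD (0.59, SE 0.16; adjusted p = 0.0308). The *Plvap* call was lost without AAV-NC liver 1, 6 or 8 or AAV-TuD liver 4, 9 or 10 (adjusted p up to 0.0731). *Cd34* was at 0.97 ± 0.17 and 1.97 ± 0.996 CPM (1.01, SE 0.34; adjusted p = 0.0687), from 16 reads on average, and *Vwf* at 1.19 ± 0.34 and 1.08 ± 0.23 CPM (-0.14, SE 0.25). Stellate cell markers moved in the same direction, with 12 of 18 tested higher, none lower and a median of 0.76, and their summed level was 312 to 408 CPM in AAV-NC and 532 to 708 CPM in AAV-TuD. *Col3a1* (1.91, SE 0.17), *Col1a1* (2.30, SE 0.23), *Col1a2* (1.40, SE 0.17) and *Dcn* (0.79, SE 0.10) had the smallest p among them, and *Acta2* was not among the genes tested. The part of stellate cell RNA in the capillary list was not tested.

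Few zonal and lymphatic endothelial genes were tested, and the zonal ones were low. On the central vein side 7 genes were tested and none was called by edgeR at an adjusted p under 0.05, with a median of 0.27. *Rspo3*, an enhancer of WNT signaling, was at 6.50 ± 0.71 and 8.59 ± 1.62 CPM (0.41, SE 0.15; adjusted p = 0.0876) and *Wnt2* at 1.65 ± 0.63 and 2.32 ± 0.44 CPM (0.51, SE 0.26), while *Wnt9b* and *Thbd* were not among the genes tested. On the portal side none of 9 was called and all 9 log2 fold changes were above 0, with a median of 0.33. *Ltbp4*, the most abundant, was at 9.46 ± 1.87 and 11.97 ± 1.20 CPM (0.33, SE 0.13; adjusted p = 0.107). Of 4 tested lymphatic genes 1 was higher, *Reln* (0.66, SE 0.13; adjusted p = 0.0060), which stellate cells also make, with a median of 0.14. *Prox1*, which hepatocytes also express, was at 133 ± 35.3 and 144 ± 30.1 CPM, and the defining lymphatic genes *Pdpn*, *Ccl21a* and *Mmrn1* were not among the genes tested.

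**Figure D4:**
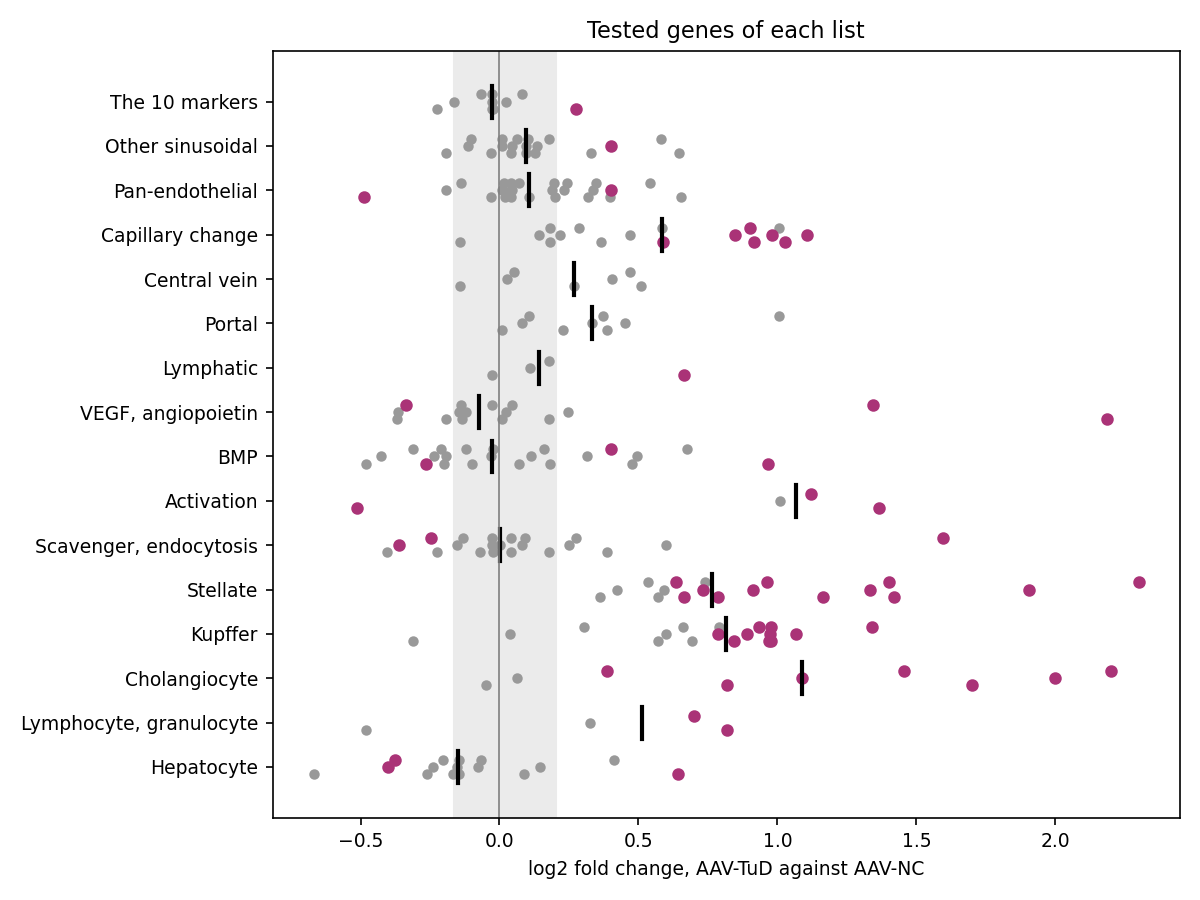
Log2 fold change of each tested gene by list, AAV-TuD against AAV-NC; purple points have an adjusted p under 0.05, black lines are medians and the gray band marks the quartiles of all genes tested. The 10 markers have a median of -0.03, against 0.76 for stellate, 0.82 for Kupffer and 1.09 for cholangiocyte markers.

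Ligands, receptors and effectors of the VEGF, angiopoietin and BMP pathways were examined next. In the VEGF and angiopoietin list 2 genes were higher and 1 was lower of 16 tested, with a median of -0.07. That is 18.75% called, against 11.6% over all genes tested. Among ligands, *Vegfa* was at 71.6 ± 6.99 CPM in AAV-NC and 55.5 ± 11.3 CPM in AAV-TuD (log2 fold change -0.37, SE 0.12; adjusted p = 0.0667) and *Vegfb* was lower, at 19.8 ± 1.68 and 15.7 ± 1.89 CPM (-0.34, SE 0.10; adjusted p = 0.0401). The call of *Vegfb* was lost in 10 of 21 other runs, including those without AAV-NC liver 1, 6 or 8 or AAV-TuD liver 3, 5, 9, 10 or 11 (adjusted p up to 0.0881). *Angpt1*, the activating ligand of TIE2, was higher, at 1.15 ± 0.74 and 2.92 ± 0.76 CPM (1.34, SE 0.34; adjusted p = 0.0171). *Src*, a kinase downstream of several receptors, is the other gene counted as higher. It had 2 to 4 reads in AAV-NC livers and 11 to 26 in AAV-TuD livers, and it passed the filter on low counts only through AAV-TuD, so that its call is no support for a change of the list. Among receptors, *Flt1* (-0.19, SE 0.11), *Flt4* (0.18, SE 0.16) and *Nrp1* (-0.15, SE 0.10) were not called, like *Kdr*.

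In the BMP list, 2 genes were higher and 1 was lower of 22 tested, with a median of -0.03. The share called, 13.6%, is near the 11.6% of all genes tested. *Gdf2*, which encodes BMP9, a ligand of endothelial ALK1 and endoglin made in the liver by stellate cells, was higher, at 7.22 ± 1.22 CPM in AAV-NC and 14.1 ± 1.83 CPM in AAV-TuD (0.96, SE 0.13; adjusted p = 5.1e-04). *Acvrl1*, the gene of ALK1, was at 1.23 ± 0.71 and 1.77 ± 0.37 CPM (0.48, SE 0.32; adjusted p = 0.383), and *Id2*, a target of the pathway and the most abundant of the list, was not called (-0.02, SE 0.13). *Smad4*, the shared signal transducer, was lower (-0.27, SE 0.08; adjusted p = 0.0433). That call was lost with DESeq2 and in each of the 11 runs that left out a single liver (adjusted p up to 0.110). It was also lost with upper-quartile scaling, with library size alone and without the 3 livers with a high *Mup* share.

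In the list of scavenger and endocytic genes, which includes 5 of the 10 markers, 1 gene was higher and 2 were lower of 21 tested, with a median of 0.0024. The share called, 14.3%, is near the 11.6% of all genes tested. *Cd36*, a fatty acid and lipoprotein receptor that hepatocytes and macrophages also make, was higher (1.597, SE 0.21; adjusted p = 3.4e-04). *Cltb*, a clathrin light chain, was lower (-0.36, SE 0.09; adjusted p = 0.0139), as was *Scarb2*, a lysosomal membrane protein (-0.25, SE 0.07; adjusted p = 0.0298). The *Scarb2* call was lost without AAV-NC liver 1, 6 or 7 or AAV-TuD liver 4, 5 or 11 (adjusted p up to 0.0722), and those of both were lost with library size alone. Without the 3 livers with a high *Mup* share, 4 genes of the list were higher and 1 was lower, so at least 1 of these 2 calls was lost.

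Of the genes of activated endothelium, 4 of 14 were tested, 2 were higher and 1 was lower. *Vcam1*, an adhesion molecule that stellate cells and macrophages also make, was at 8.69 to 12.5 CPM in AAV-NC and 16.9 to 31.6 CPM in AAV-TuD, without overlap (1.12, SE 0.16; adjusted p = 5.5e-04). *Selplg*, the selectin ligand of leukocytes, is the other gene counted as higher (1.37, SE 0.38; adjusted p = 0.0308), but with 2 to 9 reads in AAV-NC livers and 8 to 28 in AAV-TuD livers it too passed the filter only through AAV-TuD. The *Selplg* call was kept in 3 of 11 runs that left out a single liver. It was lost without AAV-NC liver 2, 6 or 7 (adjusted p up to 0.0695), and the gene was not tested without AAV-TuD liver 4, 5, 9, 10 or 11. *Lbp*, a lipopolysaccharide binding protein made mainly by hepatocytes, was lower (-0.51, SE 0.12; adjusted p = 0.0126). The *Lbp* call was lost with library size alone and without the 3 livers with a high *Mup* share. *Icam1* and *Sele* were not among the genes tested.

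Other cell types are given for the same livers. Cholangiocyte markers were higher in 7 of 9 tested, with a median of 1.09, led by *Spp1* (2.20, SE 0.25), *Bicc1* (1.70, SE 0.27), *Epcam* (2.0, SE 0.37) and *Sox9* (0.82, SE 0.16), of which *Epcam*, at 3 to 9 reads in AAV-NC livers, passed the filter only through AAV-TuD, with *Cdh1* the most abundant (0.39, SE 0.10). Of lymphocyte and granulocyte markers 4 of 18 were tested and 2 were higher, *Cybb* (0.82, SE 0.16) and *Ptprc* (0.70, SE 0.19), and the call of *Ptprc* was lost without AAV-NC liver 1, 2, 6 or 7 or AAV-TuD liver 4, 9 or 10 (adjusted p up to 0.0727). Of 16 hepatocyte markers 1 was higher, *Cyp3a11* (0.64, SE 0.12), and 2 were lower, *Apob* (-0.40, SE 0.10) and *Hnf4a* (-0.38, SE 0.09), with a median of -0.15. The difference between the sinusoidal markers and these lists was not tested.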

How the data were processed

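Reads of QuantSeq 3′ mRNA libraries (500 ng RNA each) were trimmed with BBDuk, aligned to GRCm38 with STAR 2.5.3a and counted per gene with Rsubread by the authors, who used DESeq2 1.38.3 for their own tests. The deposited values are raw counts, not normalized. Neither the annotation and strand setting nor the rule for reads with several matches is given in the sources used here.

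A gene was tested where 5 or more livers had counts above 10. The test was edgeR's quasi-likelihood test (version 4.0.16, R 4.3.3), with TMM factors over all 11 livers, no covariate and Benjamini-Hochberg adjustment over the 13334 genes. The SE is the log2 fold change divided by the square root of F. CPM use library sizes multiplied by the TMM factors, with a prior count of 2 for log2 CPM. It was tried on simulated counts. The p-values measure the spread between these livers, each labelled as a separate sample. The markers and gene lists, written by hand, were chosen with earlier results of these data known. Named from each list, beside a fixed set of genes, were at most 4 called genes with the smallest p and the most abundant gene. *Ly6a* was added after its values had been seen, and *Acta2*, *Pdpn*, *Ccl21a*, *Mmrn1*, *Sele* and *Zbtb39* were added later. A gene named by this rule is not reported here. Positions are from GENCODE M21 (GRCm38), and miRNAs from RefSeq (GRCm38.p6).

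Alternatives were the Wald test of DESeq2 1.42.0, voom with quality weights in limma 3.58.1, 3 other scalings in edgeR (upper quartile, DESeq2's size factors, library size only), filterByExpr or no filter, removal of the 50 genes with most reads or of the *Mup* genes, and each liver left out. Removal of the 3 livers with a *Mup* share over 25% was chosen after the data had been seen.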

Additional observations from a re-analysis of the deposited data

Results flagged for a closer look

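Groups of 5 and 6 livers were examined for a liver far from the others, by the gap to its nearest neighbor as a share of the group's range. This was done for the CPM of the markers, of the other named genes and of the summed markers, 148 groups in all, and 11 livers stood out, where chance gives about 7.4. Among the markers it was *Kdr* in AAV-NC liver 7, with a gap of 0.722 of the range. It was at 43.3 CPM (346 reads), against 53.7 to 57.7 CPM in the other AAV-NC livers, and this is also the liver with the highest *Mup* share (38.6%) and the lowest TMM factor (0.667). Their part in the *Kdr* value was not tested. Without that liver *Kdr* had a log2 fold change of -0.09 (adjusted p = 0.427).

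Among the other genes, *Gata4* was highest in AAV-TuD liver 9 (gap 0.765 of the range; 11.3 CPM against 6.38 to 7.54) and *Vwf* in AAV-NC liver 6 (0.724; 1.77 CPM, from 16 reads, against 0.97 to 1.19). *Gdf2* was lowest in AAV-TuD liver 3 (0.630; 10.6 CPM against 13.6 to 15.3). *Smad4* was highest in AAV-NC liver 8 (0.797; 18.6 CPM against 16.1 to 16.6) and lowest in AAV-TuD liver 9 (0.751; 12.9 CPM against 14.1 to 14.5). *Id2* was highest in AAV-TuD liver 11 (0.671; 338 CPM against 232 to 267), *Spp1* lowest in AAV-TuD liver 5 (0.664; 11.7 CPM against 22.8 to 28.4), *Cyp3a11* highest in AAV-NC liver 1 (0.825; 1496 CPM against 1168 to 1225), *Apob* lowest in AAV-NC liver 6 (0.743; 1360.3 CPM against 1636 to 1731) and *Alb* highest in AAV-TuD liver 9 (0.677; 33283 CPM against 25671 to 28131).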

How the results depend on the processing

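No paired analysis was possible because the groups share no replicate numbers. Called markers numbered 1 as reported and 0 with DESeq2's size factors in edgeR and without a filter, where *Maf* stayed higher (log2 fold change 0.27 in each). With single livers left out they numbered 0 to 1 and the log2 fold change of *Maf* was 0.22 to 0.31, and *Maf* was called in 2 of 11 runs. With library size alone the markers' median log2 fold change was 0.20, 95.1% of all calls were higher against 62.6% with TMM, and 7 markers turned to values above 0: *Stab1* (0.21), *Stab2* (0.20), *Lyve1* (0.17), *Fcgr2b* (0.00020), *Gpr182* (0.074), *Kdr* (0.19) and *Pecam1* (0.17), none of them called. In all 20 other runs the median was between -0.06 and -0.0046. With limma-voom *Lyve1* was at 0.067. Among uncalled markers, leaving out single livers also turned the sign of *Stab1* (-0.11 to 0.087), *Stab2* (-0.081 to 0.037), *Lyve1* (-0.21 to 0.22) and *Kdr* (-0.093 to 0.0034). Calls among the other sinusoidal genes, 1 as reported, numbered 2 with library size alone, 0 to 1 with single livers left out, being 0 without AAV-NC liver 1 or 6 and 1 without AAV-TuD liver 10, and 0 without the 3 livers with a high *Mup* share. Calls among all genes numbered 1543 as reported, and 1012 (without AAV-TuD liver 4) to 1829 (without AAV-TuD liver 3) with single livers left out. The cause of these changes was not tested. Depth limits *Stab1* and *Gpr182*, with means of 26.4 and 29.5 reads.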
